A study of Arabidopsis thaliana with 4 samples.

Results

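The floral organ identity genes followed here are LEAFY (LFY), APETALA1 (AP1), APETALA3 (AP3), PISTILLATA (PI) and AGAMOUS (AG). They were taken as 5 stated probe sets of the ATH1 array, an oligonucleotide array of the Arabidopsis thaliana genome, out of 22810 probe sets in all. The gene names come with that choice of probe sets, because the platform annotation used here lists 0 of the 5. The genotypes compared were both in the Col-0 ecotype and grown in long days, with 16 h of light, at 21 °C. Plants carrying xrn4-5, an allele of the cytoplasmic exoribonuclease gene XRN4, gave 2 arrays, and wild-type Col-0 plants gave 2 arrays. Each array measured total RNA of inflorescences that held flowers of mixed stages. The labels do not say how many plants went into a sample, or whether both samples of a genotype were grown apart. A p-value therefore covers the spread between these arrays alone, and that spread may be technical.

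In the ABC model of the flower, overlapping activities of a few transcription factors decide which organ forms in each whorl. LFY acts first, turns a young meristem into a flower and switches on the genes below it. AP1 helps to set floral fate and is needed for sepals and petals, AP3 and PI work as a heterodimer in petals and stamens, and AG is needed for stamens and carpels and ends the growth of the floral meristem. AP1, AP3, PI and AG encode MADS box proteins, and LFY encodes a plant-specific factor of another kind.

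The comparison asks whether the levels of these transcripts differ when XRN4, an enzyme that digests uncapped RNA in the 5' to 3' direction, is altered. None of the 4 genes bright enough for the test passed it for a difference between xrn4-5 and Col-0, beside 0.00733% of all tested probe sets. LFY was too dim for the test and did not pass in a fit of all probe sets, which called 0.0% of them. The arrays of the genotypes separated in none of the 5 genes, beside 38.6% of all probe sets. Estimated differences, as fold of xrn4-5 over Col-0, lay between 0.891 for LFY and 1.13 for AP1. With 32 added to each signal before taking log2, every 95% interval lay inside 2-fold in either direction. For the dim LFY the width depends on the value added. The standard error of its log2 difference was 0.211 with 32 added and 0.337 with 1 added. The 2-fold bound is therefore read only for the 4 genes bright enough for the test. A probe set reports a summed hybridization signal, so full-length and shortened RNA of a gene cannot be told apart, and in whole inflorescences fewer cells of a type and less RNA per cell cannot be told apart.

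The arrays were alike in overall brightness, with median signals of 240 to 248. XRN4 has no named probe set here, so the mutated gene gives no check of the labels. Green-tissue genes were bright, with rubisco activase (RCA) between 14421 and 16693 in all arrays. Tapetum genes ranged widely, with ATA27 between 5235 and 6481 and AT1G06170 between 155 and 220. Of 37 marker genes fixed for the tissues of an inflorescence and for root hairs, 15 had a named probe set. No marker was listed at 0. CLV3, a stem cell gene and the 1 floral meristem marker measured, was too dim for the test. It read 33.0 and 10.0 in xrn4-5 plants against 7.0 and 6.9 in Col-0 plants, without overlap, beside 38.6% of all probe sets. A limma fit of all probe sets gave CLV3 an adjusted p of 0.733. The tapetum and late pollen markers had lower estimates in xrn4-5 in 4 of 4 and 3 of 3 tested genes, and 0 of the 7 passed the test. A lower estimate was given to 47.4% of all tested probe sets. Both xrn4-5 arrays lay below both Col-0 arrays in 3 of the 4 tapetum genes and 2 of the 3 pollen genes, beside 18.6% of tested probe sets. Summed signals were 7637 and 8390 in xrn4-5 plants against 9176 and 9260 in Col-0 plants for the tapetum list. For late pollen they were 1136 and 1109 in xrn4-5 plants against 1538 and 1198 in Col-0 plants. On the log2 scale the 4 tapetum genes (ATA27, A9, AMS and AT1G06170) differed by -0.23 to -0.15 and the 3 pollen genes (TUA1, ACT12 and AGL65) by -0.29 to -0.06. The green-tissue genes RCA, PSBY and PRK differed by -0.04, 0.03 and -0.03, and the ovule gene INO by -0.08. The seed coat gene BAN read 409 and 319 in xrn4-5 plants against 670 and 182 in Col-0 plants, so the Col-0 arrays lay on either side of both xrn4-5 arrays. The root hair genes EXPA7 and EXPA18 were dim, between 76.6 and 134.8 in all arrays. They did not overlap between genotypes either, with EXPA7 lower and EXPA18 higher in xrn4-5. What part these cell types have in the values of the 5 genes was not tested.

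**Figure D1:**
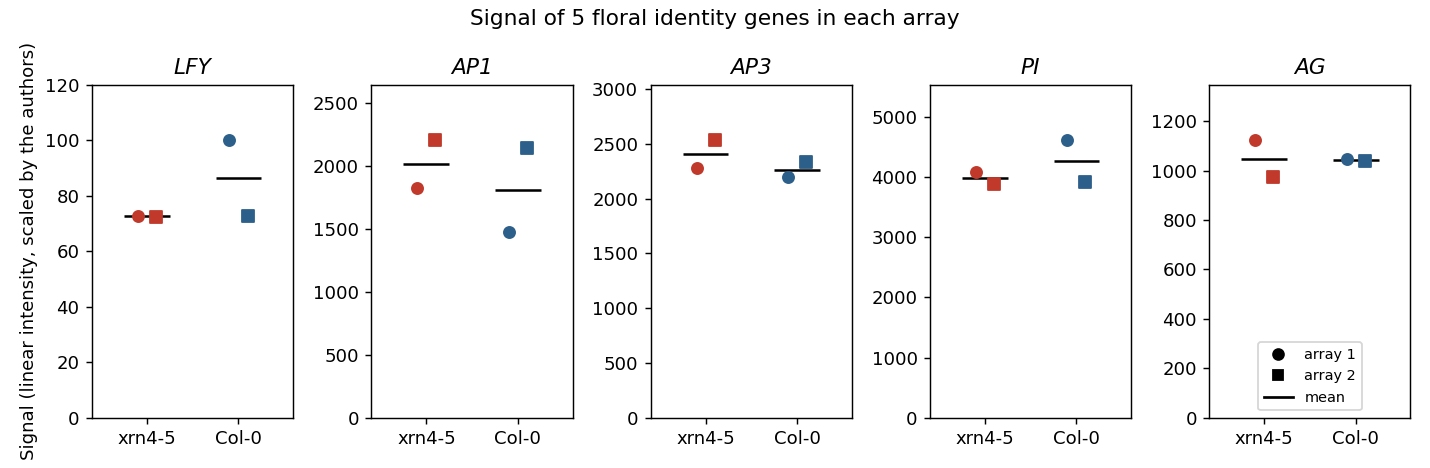
Signal of LFY, AP1, AP3, PI and AG in each array (linear intensity, y axes from 0), with xrn4-5 at the left and Col-0 at the right of each panel. Circles are array 1, squares are array 2 and lines are means of 2 arrays. The genotypes overlap in all 5 genes.

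LFY was the 1 gene of the 5 too dim for the test. Its probe set 247490_at (locus AT5G61850) read 72.8 and 72.5 in xrn4-5 plants, against 100 and 72.6 in Col-0 plants. Only array 1 of Col-0 stood apart, and the other 3 arrays were nearly equal. The mean over all arrays was below 159.5, the value under which the dimmest 40% of probe sets were left out of the test, so LFY has values from a fit that kept all 22746 probe sets without controls. In that fit the log2 difference, xrn4-5 minus Col-0, was -0.17, with a 95% interval of -0.71 to 0.38 and a limma adjusted p of 0.877. Without array 1 of Col-0 the log2 difference was 0.00069. The sources used here give no detection call, so whether this signal lies above background is not known.

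AP1 had the widest spread of the 5. Probe set 259372_at (AT1G69120) read 1827 and 2203 in xrn4-5 plants, against 1472 and 2140 in Col-0 plants. Array 2 was the brighter array in each genotype, and the xrn4-5 values lay at 2015 ± 266 (SD, n = 2) against 1806 ± 472 (SD, n = 2) in Col-0. The fitted fold was 1.13 with a 95% interval from 0.792 to 1.61 (limma adjusted p = 0.828). The log2 difference of 0.17 moved with each array left out, and most with those of Col-0. Without array 1 or 2 of xrn4-5 it was 0.31 or 0.04. Without array 1 of Col-0 it turned to -0.09, and without array 2 of Col-0 it was 0.44 (limma unadjusted p = 0.0491, adjusted p = 0.492). In the authors' deposited table, AP1 had log2 ratios of 0.3 in the first pair of same-numbered arrays and 0.0 in the second, with change p-values of 0.000438 and 0.5. A change p-value under 0.01 was given to 6.85% of probe sets in the first pair in the authors' deposited table. That share leaves out values near 1, and how the change p-value treats decreases is not stated. The log2 ratios of the first and second pair in the authors' deposited table were -0.3 and 0.2 for LFY, 0.1 and 0.0 for AP3, -0.2 and 0.0 for PI, and 0.0 and -0.1 for AG.

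The B class partners AP3 and PI had estimates of opposite sign, each smaller than its interval. AP3 (251898_at, AT3G54340) read 2281 and 2533 in xrn4-5 plants, against 2195 and 2332 in Col-0 plants. The higher Col-0 array lay above the lower xrn4-5 array, so the genotypes overlapped, and the fitted fold was 1.06 with a 95% interval from 0.868 to 1.30 (limma adjusted p = 0.851). PI (246072_at, AT5G20240) read 4078 and 3878 in xrn4-5 plants, against 4610 and 3917 in Col-0 plants. Array 1 of Col-0 was the highest, and the other 3 arrays lay close together. The fold of PI was 0.936, with a 95% interval from 0.761 to 1.15 (limma adjusted p = 0.841), and without array 1 of Col-0 the log2 difference turned to 0.02.

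Because AP3 and PI proteins act as a pair, their signals were also set against each other within each array. The absolute ratio of a pair of probe sets carries no meaning, and only its change between arrays is read. The log2 ratio of AP3 over PI was -0.83 and -0.61 in xrn4-5 plants, against -1.06 and -0.74 in Col-0 plants. The genotypes overlapped, with a difference of means of 0.18. AP1 over AG, the A and C functions that exclude each other in the flower, gave 0.69 and 1.15 in xrn4-5 plants, against 0.48 and 1.02 in Col-0 plants. These overlapped too, and in each genotype array 2 was higher than array 1.

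AG had the estimate nearest to no change. Its probe set 254595_at (AT4G18960) read 1122 and 975 in xrn4-5 plants, against 1047 and 1037 in Col-0 plants. The Col-0 values lay between the xrn4-5 values. Means were 1049 ± 104 (SD, n = 2) in xrn4-5 plants and 1042 ± 7.35 (SD, n = 2) in Col-0 plants, and the fitted fold was 1.00 with a 95% interval from 0.807 to 1.25 (limma adjusted p = 0.994). Its log2 difference of 0.0053 was smaller in size than that of all but 2.07% of tested probe sets, and its sign turned with median centring, in the mean of the authors' deposited ratios (-0.05) and without array 1 of xrn4-5 or array 2 of Col-0.

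**Figure D2:**
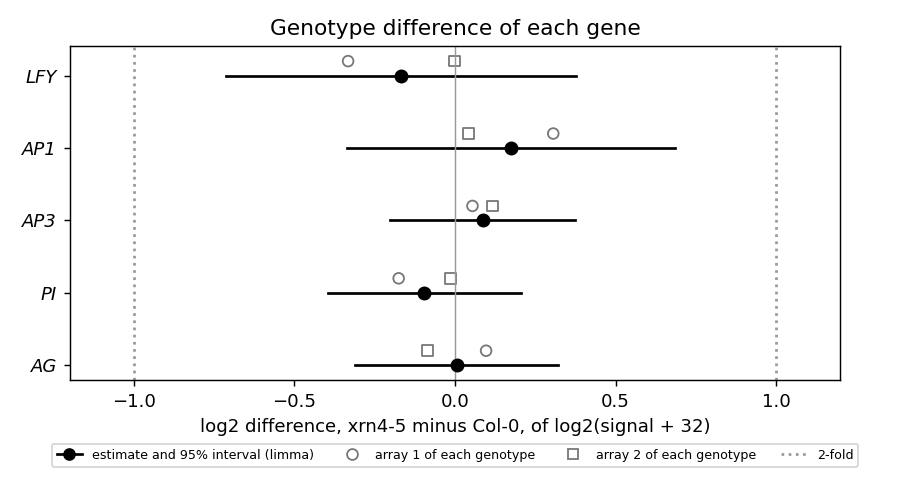
Log2 difference, xrn4-5 minus Col-0, of log2(signal + 32) for each gene. Filled points with bars are limma estimates with 95% intervals, open circles and squares are the differences between the arrays numbered 1 and between those numbered 2, and dotted lines mark 2-fold. All intervals span 0 and stay inside the dotted lines, and the width of that of LFY depends on the 32 added.

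Across the whole array few probe sets passed either, so the count of the 5 genes is read against that. At an adjusted limma p under 0.05, 0.00733% of the 13647 tested probe sets differed, against 0 of the 4 tested genes. With array number as a block that share was 0.967%, again against 0 of 4. At an unadjusted p under 0.05 without the block it was 9.38%, against 0 of 4, and LFY had an unadjusted p of 0.465 in the fit of all probe sets. The arrays of the genotypes did not overlap in 41.5% of tested probe sets, against 0 of 4. The median log2 difference of the 4 genes was 0.05, beside 0.01 over all tested probe sets. In residual spread the genes straddled the middle of the array, since the residual SD on the log2 scale was 0.09 for AP3, 0.10 for AG, 0.12 for PI and 0.30 for AP1, with a median of 0.14 over tested probe sets.

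Differences between array numbers were set beside those between genotypes. AP1 was higher in array 2 than in array 1 by 0.27 on the log2 scale in xrn4-5 and by 0.53 in Col-0. AP3 was also higher in array 2, by 0.15 in xrn4-5 plants and 0.09 in Col-0 plants. The others were lower in array 2, with log2 differences, array 2 minus array 1, of -0.07 in xrn4-5 and -0.23 in Col-0 for PI. AG had -0.20 in xrn4-5 and -0.01 in Col-0, and LFY had -0.0041 in xrn4-5 and -0.34 in Col-0. The sign was shared by the genotypes in 5 of 5 genes, as it was in 59.0% of tested probe sets. For LFY in xrn4-5 and AG in Col-0 the difference was so near 0 that its sign says little. The mean difference between array numbers exceeded the genotype difference in size in 5 of 5 genes, beside 47.1% of tested probe sets. Where a single array stands apart, both differences come out alike in size. This was so for LFY, with -0.170 between array numbers and -0.167 between genotypes, which is close to a tie. Array 1 of Col-0 was the array farthest from the median of the other 3 for LFY, AP1 and PI, and it was the farthest in 27.1% of tested probe sets. The labels do not say what the number marks.

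**Figure D3:**
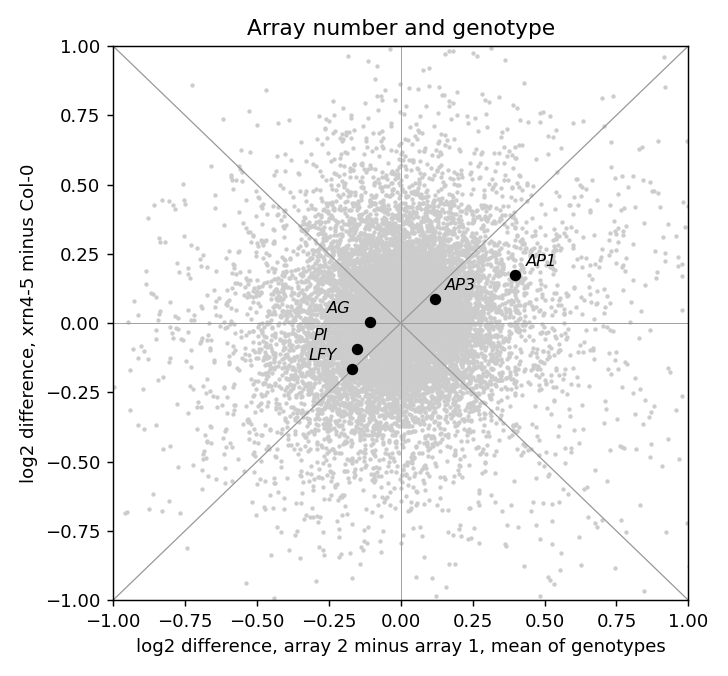
Log2 difference of array 2 minus array 1, averaged over the genotypes (x axis), against the log2 difference of xrn4-5 minus Col-0 (y axis), both on the log2(signal + 32) scale. Grey points are the tested probe sets, of which 192 lie beyond 1 on an axis and are not drawn, and black points are the 5 genes. All 5 lie inside the left and right sectors cut by the diagonals, where the difference between array numbers is the larger one.

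Genes known to act with this set were measured only in part. Of 78 such genes (partners and paralogs, regulators, targets and carpel genes), 17 had a named probe set. All 12 partners and paralogs were without one, among them the SEPALLATA genes, AP2, CAULIFLOWER and SHATTERPROOF, and they were not analysed here. Of the 17, 6 were bright enough to be tested. The estimate was higher in xrn4-5 for 5 and lower for 1, with a median log2 difference of 0.04, and 0 passed the adjusted limma test or had an unadjusted p under 0.05.

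The 4 tested regulators are named here because they are few, which was decided after their values were seen. SEUSS (SEU), a partner of the AG repressor LEUNIG, had 642 ± 74.8 (SD, n = 2) in xrn4-5 plants and 626 ± 52.1 (SD, n = 2) in Col-0 plants. ULTRAPETALA1 (ULT1), which promotes AG expression, had 289 ± 3.75 in xrn4-5 plants and 279 ± 71.9 in Col-0 plants. REBELOTE (RBL), which acts with AG in ending the floral meristem, read 369 and 352 in xrn4-5 plants, against 412 and 378 in Col-0 plants. It was the only one of the 6 whose genotypes did not overlap, beside 41.5% of tested probe sets, and its limma adjusted p was 0.803. The authors' deposited table gave RBL log2 ratios of -0.1 and -0.5, with change p-values of 0.669 and 0.999965. AGL24, a MADS box gene that promotes LFY expression, is the remaining one and differed by 0.06 on the log2 scale (limma adjusted p = 0.934). The tested carpel genes ALCATRAZ (ALC) and SPATULA (SPT) had log2 differences of 0.02 and 0.05, and that of ALC turned below 0 with quantile normalization and with median centring.

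The other 11 genes were dim and below the filter, with estimates higher in xrn4-5 for 5 and lower for 6. They include LFY's co-regulator of AP3, UNUSUAL FLORAL ORGANS (UFO), which read 24.6 and 18.7 in xrn4-5 plants, against 10.8 and 9.9 in Col-0 plants. PETAL LOSS (PTL), which limits growth between sepals, read 132 and 178 in xrn4-5 plants, against 108 and 86.5 in Col-0 plants. In both genes each xrn4-5 array read above each Col-0 array, with limma adjusted p-values of 0.652 and 0.647 in the fit of all probe sets. The genotypes did not overlap in 38.6% of all probe sets. UFO, PTL, FD and RBE are named as the 4 regulators with the smallest unadjusted limma p. FD, which acts with FT to switch on AP1, read 52.9 and 98.8 in xrn4-5 plants, against 66.1 and 23.4 in Col-0 plants. RABBIT EARS (RBE), which keeps AG out of the petal whorl, read 41.9 and 60.9 in xrn4-5 plants, against 54.0 and 8.6 in Col-0 plants. FD and RBE overlapped between genotypes. The remaining dim regulators SQN, SMZ and SNZ, named after their values were seen, overlapped too and had log2 differences of -0.07, -0.01 and -0.0030.

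The lowest readings relative to Col-0 belonged to a target of AG and a carpel gene. NOZZLE, also called SPOROCYTELESS (NZZ), is switched on by AG and starts the formation of spore mother cells. It read 29.9 and 19.2 in xrn4-5 plants, against 117 and 83.9 in Col-0 plants, while AG itself overlapped between the genotypes. NGATHA3 (NGA3), which acts in style formation, read 11.2 and 19.8 in xrn4-5 plants, against 70.8 and 62.3 in Col-0 plants. Both xrn4-5 arrays lay below both Col-0 arrays in these genes. In the limma fit of all probe sets NZZ had a log2 difference of -1.22 with a 95% interval from -1.81 to -0.64 (unadjusted p = 0.00305, adjusted p = 0.516). NGA3 had -1.06 with an interval from -1.54 to -0.58 (unadjusted p = 0.00249, adjusted p = 0.516). Neither passed the adjusted test. In that fit 2 of the 11 dim genes had an unadjusted p under 0.05, beside 7.97% of all probe sets, and 5 of the 11 did not overlap, beside 38.6%. At an adjusted p under 0.05 it called 0.0% of probe sets.

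In the authors' deposited table, NZZ had log2 ratios of -2.7 and -2.2, with change p-values of 0.693 and 0.956. In the authors' deposited table, NGA3 had ratios of -2.1 and -1.6, with change p-values of 0.532 and 0.5. How a change p-value treats decreases is not stated. RBL had 0.999965 beside a ratio of -0.5 in the second pair, so a value near 1 cannot be read as no change. All values of NZZ and NGA3 were lower than that, and none is read here as a called decrease. The 0.5 of NGA3 in the second pair was also given to AG in the first, beside a ratio of 0.0. The remaining targets measured were JAGGED (JAG) and NUBBIN (NUB), which shape stamens and carpels. JAG read 63.9 and 55.6 in xrn4-5 plants, against 85.8 and 80.5 in Col-0 plants (limma adjusted p = 0.732). NUB read 110 and 35.3 in xrn4-5 plants, against 36.4 and 63.5 in Col-0 plants, with overlap.

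**Figure D4:**
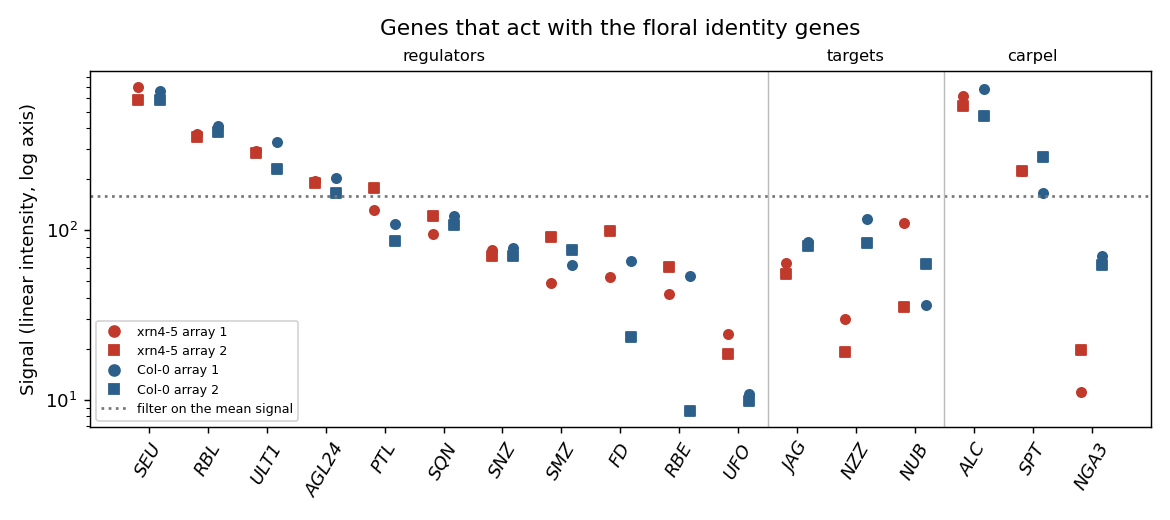
Signal of the 17 regulators, targets and carpel genes with a named probe set in each array (linear intensity on a log axis), with xrn4-5 in red at the left and Col-0 in blue at the right of each gene, and genes ordered by mean signal within a group. The dotted line is the mean signal of 159.5 below which probe sets were not tested. NZZ and NGA3 show the widest gap between the genotypes.

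Likeness of pattern was measured as the root mean square distance between profiles of log2(signal + 32) over the 4 arrays, each centred on its own mean, among 7274 tested probe sets with a named gene. With 4 arrays such likeness describes these samples only. Nearest to AG were SKU5, at a distance of 0.0068, and AT1G18070, at 0.0098, where the profile of AG itself has a root mean square of 0.07. AT4G00585 and APA1 were nearest to AP3, at 0.0051 and 0.0096. For PI they were AT5G63040 and TBL35, at 0.0053 and 0.012. The widely varying profile of AP1 had its nearest genes, BGLU25 and SERPIN1, at 0.025 and 0.028. LFY was nearest to PRX52 and AT1G67590, at 0.015 and 0.018. PRX52 read 249 and 251 in xrn4-5 plants against 332 and 250 in Col-0 plants. Its higher reading in array 1 of Col-0 follows from its being picked for likeness to LFY.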

How the data were processed

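Values were the authors' deposited intensities, linear values for each probe set, with GCOS named in the submitters' processing notes. The 2% trimmed mean was 500.04 in every array, so scaling came before deposit. The authors also deposited log2 ratios of xrn4-5 over Col-0 for same-numbered arrays, rounded to 1 decimal, and a change p-value for each, per the file headers. Their method is not stated.

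The analysis used log2(value + 32) without renormalizing, which understates changes of dim probe sets. Without the 64 controls, the dimmest 40% by mean signal were left out and 13647 probe sets tested. The test was limma's moderated one (version 3.58.1, R 4.3.3; lmFit, then eBayes with an intensity trend), two-sided, on 2 residual and 3.71 prior degrees of freedom, with Benjamini-Hochberg adjustment over all tested probe sets. The script was tested on simulated data with planted changes and independent noise of a common SD. Probe sets here differ in SD, so that run checks the code alone. In the fit of all probe sets LFY had 4.94 total degrees of freedom, against 5.71 for the tested genes. Precision is limited by having 2 arrays per genotype. Names of other genes come from the platform annotation, matched through gene identifiers to TAIR10.1: 13513 probe sets have 1 gene (13436 matched), 503 have several and 8730 are unnamed here. The brightest probe set stood for a gene that has several. Plots were made in Python 3.11.15 (matplotlib 3.10.9).

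The 5 genes and the lists were chosen with earlier results of these data known. Named were the 5 genes; in lists of at most 6 measured genes all, otherwise the 4 with the smallest p; and for each of the 5 genes, the 2 named ones most like it. Alternatives changed the pseudocount, filter, normalization, variance prior, array number as a block and arrays used.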

Additional observations from a re-analysis of the deposited data

How the results depend on the processing

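None of the 5 genes passed the adjusted limma test under any of the alternatives run. Among the settings that kept all arrays, only AG changed sign, to a log2 difference of -0.020 with median centring and to -0.05 as the mean of the authors' deposited log2 ratios, which carry no test. Fits on 3 arrays, which assume that a single array varies like the other group, gave log2 differences from -0.093 to 0.10 for AG, 0.01 to 0.16 for AP3, -0.21 to 0.022 for PI, -0.091 to 0.44 for AP1 and -0.33 to 0.00069 for LFY. The count of probe sets called higher, 1 in the test used, was 0 with no filter on dim probe sets and 0 with eBayes without trend, and 0 to 3 in the fits on 3 arrays. The count called lower was 0 to 7 in those fits, against 0 with all 4. The cause was not tested. With the replicate block, 71 were called higher and 61 lower. The 5 genes stayed uncalled with the block, with adjusted p-values of 0.990 for AG, 0.743 for AP3, 0.701 for PI, 0.524 for AP1 and 0.838 for LFY. Same-numbered arrays deviated together, at a correlation of 0.42 across tested probe sets and 0.21 across all probe sets without controls. Probe sets are not independent, and no label ties a number to a batch. For NZZ and NGA3, whose alternatives were chosen after seeing the data, the log2 difference ranged from -2.00 to -0.68 and from -2.08 to -0.53 over the pseudocounts and other settings with all arrays, and the adjusted p stayed between 0.276 and 0.931 for NZZ and between 0.293 and 0.931 for NGA3. Dim signals limit what can be said of LFY, NZZ and NGA3.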
